A study of Mus musculus with 52 samples.

Results

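The genes Itgb7, Itgae, Itga4, Itgb1, Itgb3, Itgav, Selp, Selplg and Cd44 encode 6 integrin chains that are not part of the ICAM1 receptor LFA-1, the adhesion molecule P-selectin, its ligand PSGL-1 and the hyaluronan receptor CD44. Their rows were taken by symbol from the deposited table of counts, and 9 of 9 were found among its 14626 genes. Levels are given as counts per 1000000 counts (CPM) after scaling for library composition, and they were followed across 9 groups of mouse CD8+ T cells.

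Every sample held CD8+ T cells that were purified as naive cells, by magnetic sorting, from spleens of OT-I mice, whose transgenic T cell receptor recognises a peptide of ovalbumin. DC-activated cells were stimulated by CD11c-selected dendritic cells (DCs) from C57BL/6 spleens, preloaded with that peptide, and were grown on plates coated with CCL21 and ICAM1 (9 libraries at day 3, 5 at day 4) or on uncoated plates (7 libraries at day 3, 5 at day 4). Bead-activated cells were stimulated by microbeads that bind CD3 and CD28 through antibodies, and given interleukin 2, on the same coating (5 libraries at day 3, 4 at day 7) or uncoated (3 libraries at day 3, 5 at day 7). The remaining 9 libraries were from freshly isolated cells at day 0. Titles carry an M number and, for DC cultures, 30 or 120, and neither number is explained in the labels. Whether DCs were removed before RNA was taken is not given in the sources used here, and no label ties an M number to an animal, so the p-values rest on the spread among these samples, which may be technical.

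Integrins are pairs of an alpha and a beta chain that bind ligands on other cells or in the matrix, and a chain reaches the cell surface only with a partner. In CD8+ T cells the alpha4 chain (Itga4) pairs with beta7 (Itgb7) to bind the gut addressin MAdCAM-1 and with beta1 (Itgb1) to bind VCAM-1, while alphaE (Itgae, also called CD103) pairs with beta7 to bind E-cadherin of epithelia. The chains alphav (Itgav) and beta3 (Itgb3) form the vitronectin receptor. P-selectin (Selp) is best known from platelets and endothelium, where it captures leukocytes through PSGL-1 (Selplg), and CD44 (Cd44) binds hyaluronan and is a classical marker of T cells that have met antigen.

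In the GENCODE annotation of GRCm38, the assembly that mm10 names, all 9 are protein-coding genes. Itga4 (chr2:79255426-79333123), Itgav (chr2:83724397-83806916) and Cd44 (chr2:102811141-102901665) share chromosome 2, and Itgae (chr11:73090583-73147446) and Itgb3 (chr11:104608000-104670476) share chromosome 11. Itgb7 lies at chr15:102215995-102231944, Itgb1 at chr8:128685654-128733200, Selp at chr1:164115264-164150026 and Selplg at chr5:113818536-113832644. Promoter windows, the 250 bases before the start in RefSeq on GRCm38.p6, were matched by symbol for 6 of the 9; Itgae, Itgb3 and Selplg had no entry in the table used. The windows of Itgb7 (chr15:102231936-102232185, minus strand), Itga4 (chr2:79255176-79255425, plus strand) and Selp (chr1:164115014-164115263, plus strand) are printed 5′ to 3′ on the gene's strand, because these 3 genes were lower together in DC-activated cells on the coating at day 4. Capitals mark CACCC or its reverse complement GGGTG, the core that KLF transcription factors are known to bind.
Itgb7: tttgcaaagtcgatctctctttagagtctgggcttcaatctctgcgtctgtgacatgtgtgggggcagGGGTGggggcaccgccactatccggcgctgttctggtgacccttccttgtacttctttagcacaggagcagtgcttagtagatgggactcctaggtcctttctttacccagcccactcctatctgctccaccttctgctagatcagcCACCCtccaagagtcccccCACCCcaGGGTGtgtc
Itga4: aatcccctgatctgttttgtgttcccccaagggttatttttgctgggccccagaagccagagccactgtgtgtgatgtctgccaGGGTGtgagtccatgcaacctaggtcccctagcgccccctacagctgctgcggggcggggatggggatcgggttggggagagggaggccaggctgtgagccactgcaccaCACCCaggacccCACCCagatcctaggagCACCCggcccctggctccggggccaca
Selp: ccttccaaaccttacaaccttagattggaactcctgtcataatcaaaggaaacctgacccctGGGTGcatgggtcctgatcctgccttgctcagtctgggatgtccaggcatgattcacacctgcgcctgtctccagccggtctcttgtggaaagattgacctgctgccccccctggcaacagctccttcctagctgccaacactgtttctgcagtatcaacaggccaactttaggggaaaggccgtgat
The Itgb7 and Itga4 windows hold 4 matches each and the Selp window holds 1, while Itgb1 has 2, Itgav 1 and Cd44 0. Over 32851 windows of that length, 52.0% hold at least 1 match, the median is 1, and 2.14% hold 4 or more. TGTGGT or its reverse complement, the core of RUNX factors, was found 1 time, in Itga4, where it overlaps a CACCC match; 14.0% of windows hold it. The Itga4 window is 64% G or C, Itgb7 56% and Selp 53.6%, against a median of 52.4% over all windows, and these matches are a description of letters only.

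Library totals ran from 382924 to 4641802 counts. The 16 DC libraries of day 3 were summed by M number and coating to 5 coated and 4 uncoated samples, which gives 45 samples in all. CD8 T cell markers (8 of 8 listed genes counted) summed to 3774 to 7885 CPM over all samples, with none of the 8 at 0 in any group. Transcripts of other cells were high at day 0, where listed genes of DCs and MHC class II summed to 10967 to 20246 CPM and erythroid genes to 26548 to 138510 CPM. Both of these sums were lower after activation, but some libraries stood apart. The M8 samples of DC day 4 had DC and MHC class II sums of 353 CPM coated and 1386 CPM uncoated, and at bead day 7 the uncoated M3 and M4 samples had erythroid sums of 493 and 856 CPM against 10.8 to 18.5 CPM in the other 3. Erythroid sums at uncoated DC day 4 were 1201 CPM in M8 and 618 CPM in M9, against 18.8 to 49.2 CPM in M6, M7 and M10. At DC day 3 they ran from 55.2 to 248 CPM coated and from 19.7 to 502 CPM uncoated.

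The level of each gene over the groups is given first as mean ± SD, with n of 9 at day 0, 5 and 3 for coated and uncoated bead day 3, 4 and 5 for bead day 7, 5 and 4 for DC day 3 and 5 and 5 for DC day 4. Since only 3′ ends were sequenced and no length scale applies, levels are compared between groups for a gene and not between genes. In bulk samples a lower level in each cell and fewer cells with the transcript cannot be told apart.

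Itgb7 averaged 535 ± 55.8 CPM at day 0. It had 314 ± 80.8 CPM coated and 340.4 ± 73.1 CPM uncoated at bead day 3, and 344 ± 57.6 and 366 ± 105 CPM at bead day 7. DC-activated cells had 42.9 ± 3.47 CPM coated and 89.7 ± 15.1 CPM uncoated at day 3, and 321 ± 133 and 615 ± 69.9 CPM at day 4. In the order of means the DC day 3 groups stood lowest, apart from each other and from all others, while each of the other 7 groups overlapped its neighbour in the order. Itgae, the alpha chain that needs beta7, averaged 166 ± 13.6 CPM at day 0, 28.1 ± 15.01 and 55.8 ± 17.4 CPM in coated and uncoated bead day 3, and 55.7 ± 33.6 and 51.3 ± 26.01 CPM in coated and uncoated bead day 7. At DC day 3 it was near the limit of detection, with 1 to 16 counts per sample and 2.44 ± 1.77 CPM coated and 3.47 ± 1.80 CPM uncoated, and at DC day 4 it had 89.9 ± 63.9 and 235 ± 31.3 CPM. The uncoated DC day 4 group was highest and did not overlap day 0, the next in order, and the DC day 3 groups were lowest, below every bead sample.

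Itga4 was highest at day 0, with 54.8 ± 13.6 CPM, and no other group overlapped it. It had 4.19 ± 1.54 CPM coated and 1.80 ± 2.02 CPM uncoated at bead day 3, 0.43 ± 0.54 and 2.16 ± 1.61 CPM at bead day 7, and 2.27 ± 0.72 and 3.32 ± 1.79 CPM at DC day 3. Bead samples held 0 to 12 counts of it. DC day 4 was the exception among activated cells, with 8.12 ± 4.21 CPM coated and 19.2 ± 7.24 CPM uncoated. Itgb1, its other partner chain, was lowest at day 0 with 69.3 ± 12.6 CPM, apart from all other groups. It had 139 ± 29.9 and 169 ± 10.6 CPM in coated and uncoated bead day 3, 341 ± 51.8 and 319 ± 53.9 CPM at bead day 7, 251 ± 19.6 and 248 ± 25.5 CPM at DC day 3, and 217 ± 19.2 and 222 ± 22.8 CPM at DC day 4. From bead day 7 down to DC day 4 each of the 6 groups overlapped the next in order, while both bead day 7 groups lay above both DC day 4 groups without overlap.

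Itgb3 had 26.6 ± 9.02 CPM at day 0, 44.1 ± 14.1 CPM coated and 17.1 ± 4.54 CPM uncoated at bead day 3, and 68.9 ± 13.6 and 210.04 ± 83.2 CPM at bead day 7. DC-activated cells had 4.64 ± 3.08 and 12.1 ± 4.02 CPM at day 3, and 33.2 ± 7.90 and 51.8 ± 3.32 CPM at day 4. Uncoated bead day 7 was highest and coated DC day 3 lowest, each apart from its neighbour, and the other 7 groups overlapped in sequence. Itgav, the alpha partner of beta3, ran only from 8.32 ± 3.25 CPM in coated bead day 3 to 17.0 ± 3.26 CPM in coated DC day 4, and every group overlapped the next in order.

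Selp was lowest in uncoated bead day 3, with 2.28 ± 3.95 CPM and 0 counts in 2 of 3 samples, and had 8.13 ± 4.01 CPM in coated bead day 3. It averaged 4.82 ± 3.06 CPM at day 0, and 3.07 ± 1.68 and 7.25 ± 2.50 CPM in coated and uncoated bead day 7. DC-activated cells had 23.9 ± 14.2 CPM coated and 51.6 ± 14.3 CPM uncoated at day 3, and 9.29 ± 4.83 and 42.0 ± 10.5 CPM at day 4. Adjacent groups overlapped throughout, so the order shows 2 uncoated DC groups on top without a break below them. Selplg, which encodes the ligand, was present in every sample, from 520.6 CPM to 2157 CPM. It was lowest in DC day 3, with 573 ± 35.5 CPM coated and 696 ± 26.8 CPM uncoated, both apart from all other groups, and highest in uncoated bead day 7, with 1876 ± 229 CPM. Cd44 was highest at DC day 3, with 164 ± 20.4 CPM coated and 131 ± 17.6 CPM uncoated, and lowest at bead day 3, with 36.5 ± 4.34 and 33.0 ± 9.90 CPM. It had 71.3 ± 17.4 CPM at day 0, and adjacent groups overlapped throughout.

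**Figure D1:**
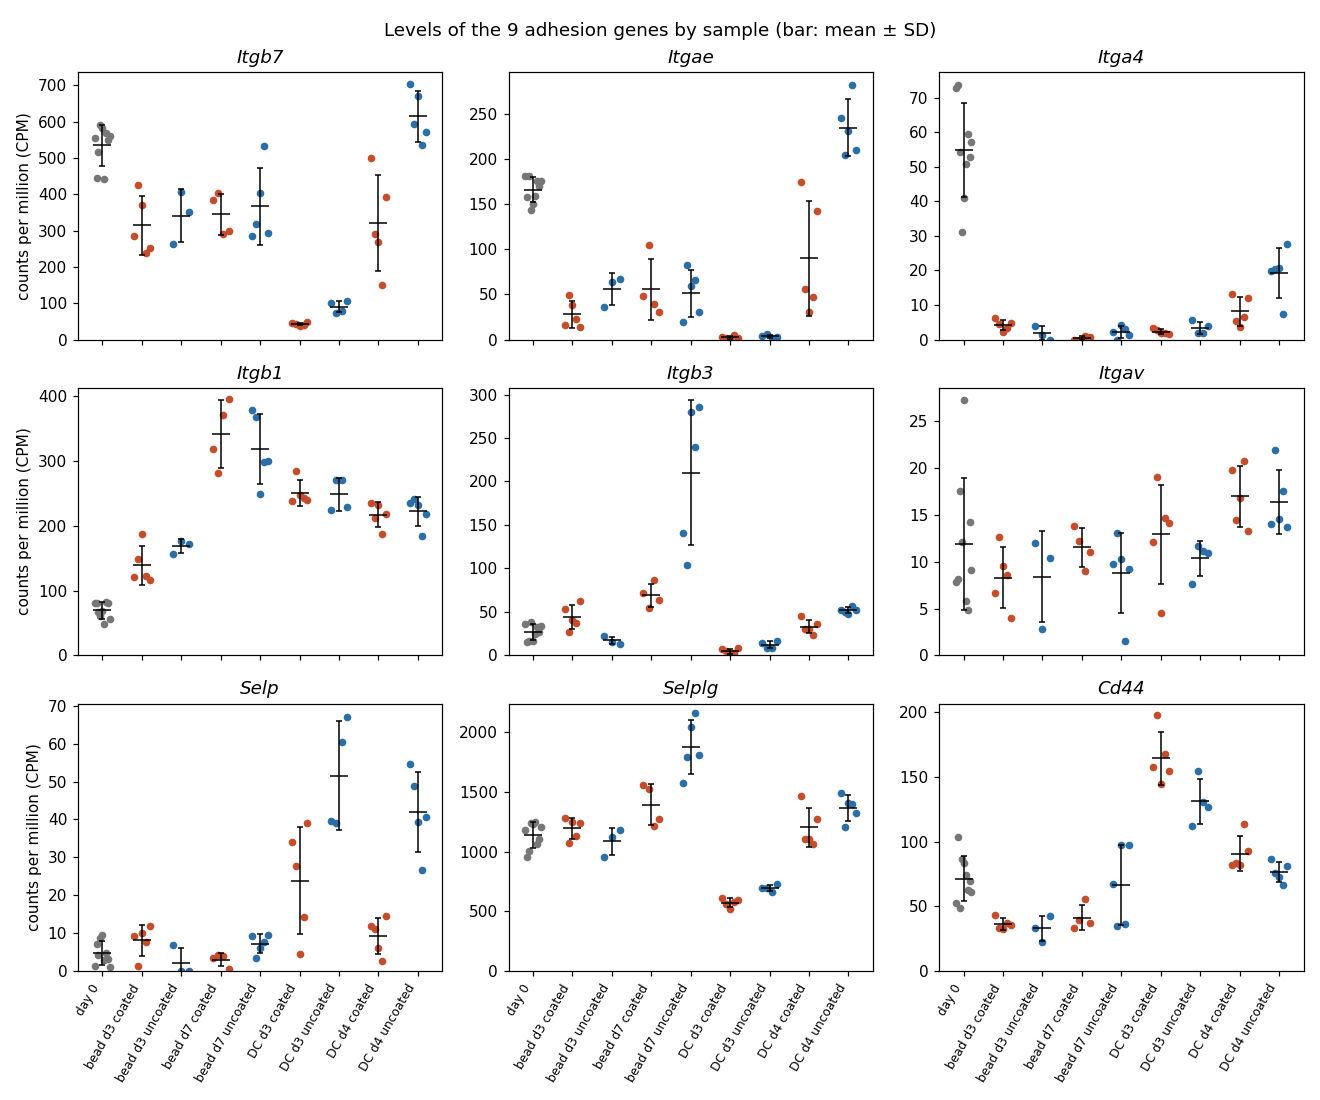
CPM of the 9 genes (vertical axis, linear, from 0) in every sample of the 9 groups (horizontal axis), with points for samples, a line for the mean and bars for the SD, coated groups in orange, uncoated in blue and day 0 in grey. Itgb7 and Itgae are lowest in DC day 3, Itgb3 is highest in uncoated bead day 7, and Selp is highest in uncoated DC-activated cells.

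The coating was compared with uncoated plates within each day and kind of activation, which addresses how CCL21 and ICAM1 together act on DC-activated and bead-activated cells. At DC day 4, 4 of the 9 genes were lower on the coating, Selp, Itga4, Itgb7 and Itgb3, and 0 were higher, by edgeR's quasi-likelihood test with Benjamini-Hochberg adjustment at an adjusted p under 0.05. All 9 passed the filter on low counts. Of 9159 genes tested, 18.4% were called, 9.46% as higher and 8.92% as lower. The median log2 fold change of the 9 genes was -0.66, beside -0.0034 over all genes tested. The samples of the groups did not overlap for 4 of the 9 genes, Itgb7, Itgae, Itgb3 and Selp, beside 12.1% of all genes tested.

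Selp, the P-selectin gene, had 11.1, 6.17, 2.59, 14.6 and 11.9 CPM in coated M6 to M10, against 48.7, 39.2, 26.7, 40.7 and 54.5 CPM in uncoated M6 to M10. Every coated sample was under every uncoated one, and M8 was the lowest of its group on both plates. This made a log2 fold change of -2.18 ± 0.30 (SE, adjusted p = 0.00149), a 4.53-fold lower level, and Selp was called in 16 of 16 alternative analyses. Itgb3 had 30.7, 29.99, 23.98, 36.1 and 45.0 CPM coated, against 49.6, 47.99, 56.8, 52.2 and 52.2 CPM uncoated. The groups were apart, with coated M10 closest to the uncoated range. The log2 fold change was -0.66 ± 0.15 (SE, adjusted p = 0.00984), and in a fit of all groups it was -0.64 and not called (adjusted p = 0.101).

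Itgb7, the beta chain shared by the MAdCAM-1 and E-cadherin receptors, had 291, 268, 151, 393 and 501 CPM in coated M6 to M10, against 594, 669.6, 536, 571 and 704 CPM in uncoated M6 to M10. Coated samples were all lower, with M8 lowest and M10 highest among them. The log2 fold change was -0.95 ± 0.26 (SE, adjusted p = 0.0287). The call was lost in 6 of 10 fits that left out 1 sample, coated M6 or M7 or uncoated M6, M7, M9 or M10 (adjusted p of 0.0521 to 0.0836), and with no filter (adjusted p = 0.0561). Without both M8 samples it was -0.81 and called (adjusted p = 0.0126).

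Itga4 had 5.34, 3.64, 6.48, 11.9 and 13.2 CPM in coated M6 to M10, against 20.4, 20.6, 7.51, 27.5 and 19.9 CPM in uncoated M6 to M10. Uncoated M8 fell among the coated samples, and the other 4 uncoated samples were above all coated ones. The log2 fold change was -1.38 ± 0.35 (SE, adjusted p = 0.0173), and it was not called without coated M6 (-1.22, adjusted p = 0.0540). Itgae had 55.4, 30.6, 47.3, 142 and 174 CPM coated, against 204, 231, 282, 209.9 and 246 CPM uncoated. The groups did not overlap, and coated M9 and M10 stood well above coated M6 to M8. With this spread the log2 fold change of -1.42 ± 0.47 missed the threshold (SE, adjusted p = 0.0712); it was called by DESeq2's Wald test (adjusted p = 0.0208), in a fit of all groups (adjusted p = 0.00752) and without coated M10 (-1.79, adjusted p = 0.0230).

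The other 4 genes were not called at DC day 4. Selplg had a log2 difference of -0.19 ± 0.12 (adjusted p = 0.251), and Cd44 one of 0.23 ± 0.12 (adjusted p = 0.196). For Itgb1, the beta chain that pairs with many alpha chains, the approximate 95% interval of the log2 difference (1.96 SE on each side) was -0.25 to 0.15, and for Itgav it was -0.38 to 0.40. In each of 5 pairs of samples with an M number in common, the coated sample was lower for Itgb7, Itgae, Itga4, Itgb3, Selp and Selplg. The share of all genes that were lower in every pair was not counted, so this is a description only. Coated and uncoated samples with an M number in common deviated together here, and with the M number as a block 27.7% of genes were called, against 18.4% without it, while the count for these genes stayed at 4 of 9.

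Markers of other cells were set beside the DC day 4 values. Of 11 listed platelet and megakaryocyte genes 4 are in the table, and they summed to 1.37 to 6.48 CPM in coated and 2.13 to 3.81 CPM in uncoated samples, with at most 2 counts of Gp9 or Clec1b in a group. Of 6 listed endothelial genes 3 are in the table, and their sum was 10.4 to 30.6 CPM coated and 44.9 to 68.2 CPM uncoated. Nearly all of it was Pecam1, with 9.72 to 30.6 CPM coated and 44.6 to 67.1 CPM uncoated, while Vwf reached 0.28 CPM coated and 1.15 CPM uncoated, and Kdr 0.65 CPM coated and 0 counts uncoated. NK cell genes summed to 7.78 to 17.8 CPM coated and 5.01 to 7.62 CPM uncoated, also without overlap, while sums for DC and MHC class II, macrophage, B cell and erythroid genes overlapped. Whether Pecam1 came from the T cells, and what part these cells have in the 4 differences, was not tested. With both M8 samples left out, the same 4 genes were called, Selp at -2.10 (adjusted p = 5.93e-05), Itga4 at -1.51 (adjusted p = 0.00961), Itgb3 at -0.54 (adjusted p = 0.0232) and Itgb7 as above.

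**Figure D2:**
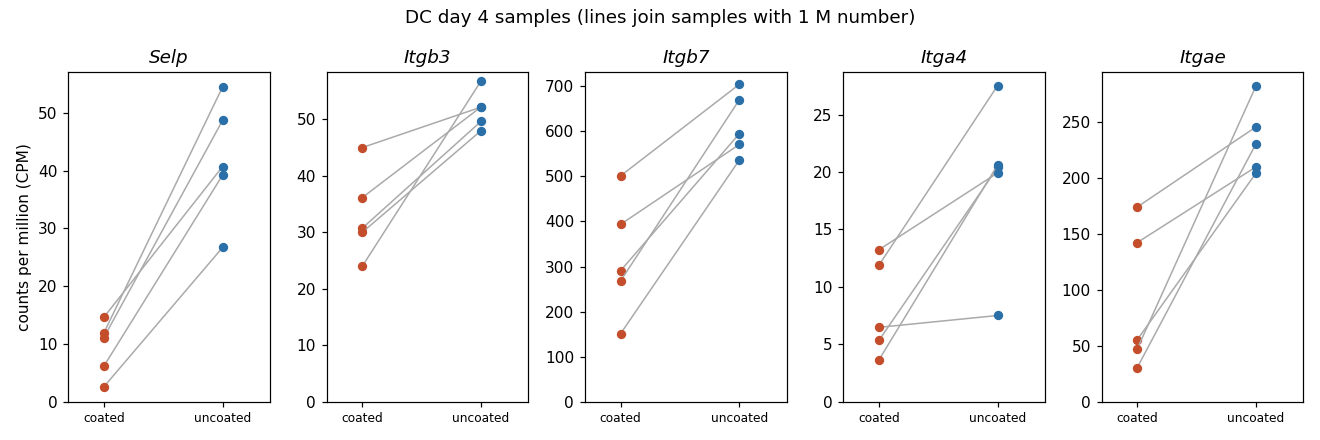
CPM (vertical axis, linear, from 0) of 5 genes at DC day 4 in coated (left) and uncoated (right) samples, with grey lines joining samples that share an M number. All lines slope upward from coated to uncoated, and for Selp the coated samples lie between 2.59 and 14.6 CPM and the uncoated ones between 26.7 and 54.5 CPM.

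At DC day 3, Itgb7 was lower on the coating, and none of the other 7 genes tested was called; Itgae did not pass the filter. Of 10245 genes tested 0.39% were called, 0.224% as lower. Itgb7 had 45.2, 42.6, 38.4, 41.0 and 47.2 CPM in coated M1 to M5, against 100.3, 74.3, 79.6 and 105 CPM in uncoated M1, M3, M4 and M5. Every coated sample was under every uncoated one, and the coated samples lay close together. B cell genes (6 of 6 in the table, none at 0) summed to 445 to 526 CPM coated and 581 to 666 CPM uncoated, also without overlap. At coated bead day 7 the same genes summed to 464 to 551 CPM with Cd79a, Ms4a1 and Cd22 at 0. Whether the sums came from B cells, and the part of such cells in the Itgb7 values, was not tested. The log2 fold change was -1.09 ± 0.11 (SE, adjusted p = 0.000602), a 2.13-fold lower level, and it was called whichever sample was left out. It missed the threshold when the 16 libraries were taken singly (-0.99, adjusted p = 0.0665).

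Itgb3, Selp and Selplg also had no overlap between coated and uncoated samples at DC day 3, beside 4.6% of all genes tested. Itgb3 had 6.97, 4.71, 0.91, 2.32 and 8.27 CPM coated, against 14.7, 8.80, 8.47 and 16.3 CPM uncoated. These are 1 to 31 counts per coated sample, and the log2 difference of -1.28 ± 0.36 missed the threshold (SE, adjusted p = 0.173). Selp had 33.9, 27.7, 4.57, 14.3 and 39.0 CPM coated, against 39.7, 39.1, 60.4 and 67.1 CPM uncoated. The highest coated sample was just under the lowest uncoated one, and the log2 difference was -1.04 ± 0.41 (SE, adjusted p = 0.360). Selplg had a log2 difference of -0.30 ± 0.07 (SE, adjusted p = 0.0940; 0.00707 by DESeq2's Wald test). For M3 the coated sample consists of a 30 library and the uncoated one of a 120 library, and the 120 library of coated M4 has the fewest counts, so the plates differ in their mix of 30 and 120.

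Within the 30 libraries, where 0.22% of 9092 genes were called (0.055% as higher and 0.165% as lower), Itgb7 had 40.8, 41.6, 38.0, 30.6 and 23.2 CPM in coated M1 to M5, against 108, 81.1 and 96.7 CPM in uncoated M1, M4 and M5. The groups were far apart, with a log2 fold change of -1.45 ± 0.18 (SE, adjusted p = 0.00191). Within the 120 libraries, where 0.0911% of 8779 genes were called, all as higher, it had 48.4, 41.0, 86.5 and 75.5 CPM in coated M1, M2, M4 and M5, against 87.6, 74.3, 74.1 and 105 CPM in uncoated M1, M3, M4 and M5. There the groups overlapped, coated M4 and M5 being within the uncoated range, and the log2 difference was -0.51 ± 0.22 (SE, adjusted p = 0.506). The difference between the effects at 120 and at 30 was itself not called (log2 0.88 ± 0.36, SE, adjusted p = 0.334), and 0.446% of 9631 genes were. None of the 7 genes tested at 120 was called, and at 30 the only one of 6 was Itgb7. At 120 the Selp difference was -0.14 and that of Selplg -0.08 (adjusted p of 0.887 and 0.885).

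Among bead-activated cells, Itgb3 was lower on the coating at day 7, and none of the other 6 genes tested was called; Itga4 and Selp did not pass the filter. Of 8696 genes tested 1.78% were called, 1.41% as lower. Itgb3 had 71.2, 54.5, 86.6 and 63.2 CPM in coated M1, M2, M3 and M5, against 141, 104, 279.9, 240.04 and 286 CPM in uncoated M1 to M5. Every coated sample was under every uncoated one, and the uncoated ones split into M1 and M2 near the coated range and M3, M4 and M5 far above it. The log2 fold change was -1.61 ± 0.32 (SE, adjusted p = 0.0399), a 3.06-fold lower level. The call was lost in 7 of 9 fits that left out 1 sample, those without coated M1, M2, M3 or M5 or uncoated M3, M4 or M5 (adjusted p of up to 0.145), and with no filter (adjusted p = 0.0554).

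The uncoated M3 and M4 samples of bead day 7 are those with the high erythroid sums, and without both of them Itgb3 was at -1.39 and not called (adjusted p = 0.213). Macrophage and monocyte genes (6 of 6 in the table) summed to 6.22 to 11.8 CPM coated, with Csf1r, Adgre1 and Cd14 at 0 counts, and to 23.7, 20.3, 36.9, 44.0 and 37.4 CPM in uncoated M1 to M5, with Adgre1 at 0. The 3 endothelial genes summed to 15.97 to 19.1 CPM coated and to 24.7, 24.4, 49.0, 44.8 and 55.3 CPM in uncoated M1 to M5. Both sums were higher in every uncoated sample than in any coated one, and were higher in uncoated M3, M4 and M5 than in M1 and M2, as Itgb3 was. The part of such cells in the Itgb3 difference was not tested. Selplg also had no overlap at bead day 7, beside 9.52% of genes tested. It had 1559, 1526, 1215 and 1274 CPM coated, against 1574, 1792, 2045, 2157 and 1812 CPM uncoated. The difference of -0.44 ± 0.14 on the log2 scale missed the threshold (SE, adjusted p = 0.0949). It was called by DESeq2's Wald test (adjusted p = 0.0248), in a fit of all groups (adjusted p = 0.00832) and without uncoated M1 (-0.51, adjusted p = 0.0336). Cd44 had a log2 difference of -0.69 ± 0.34 (SE, adjusted p = 0.258), and was called in the fit of all groups (adjusted p = 0.0414). For Itgb7 the approximate 95% interval of the difference was -0.47 to 0.28, and for Itgb1 it was -0.20 to 0.39.

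At bead day 3, 0 of 8 genes tested were called by edgeR's quasi-likelihood test, beside 0.1% of 8985 genes (0.0445% as higher and 0.0556% as lower); Itga4 did not pass the filter. At an unadjusted p under 0.05 there were 2, Itgb3 and Itgae, beside 11.2% of all genes tested. Itgb3 had 53.3, 26.9, 40.4, 37.0 and 62.8 CPM in coated M1 to M5, against 22.2, 15.7 and 13.5 CPM in uncoated M1, M2 and M4. All coated samples were above the uncoated ones, with no overlap also in 8.12% of genes tested, and the log2 difference was 1.302 ± 0.30 (SE, adjusted p = 0.179). DESeq2's Wald test called Itgb3 (adjusted p = 0.0308). DC and MHC class II genes summed to 33.9 to 65.9 CPM coated and 120 to 188 CPM uncoated here, and their part in this comparison was not tested. Itgae had 16.4, 49.3, 37.8, 22.6 and 14.3 CPM coated, against 35.9, 64.1 and 67.5 CPM uncoated. The groups overlapped, coated M2 and M3 being above uncoated M1, and the log2 difference was -1.02 ± 0.42 (SE, adjusted p = 0.424).

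**Figure D3:**
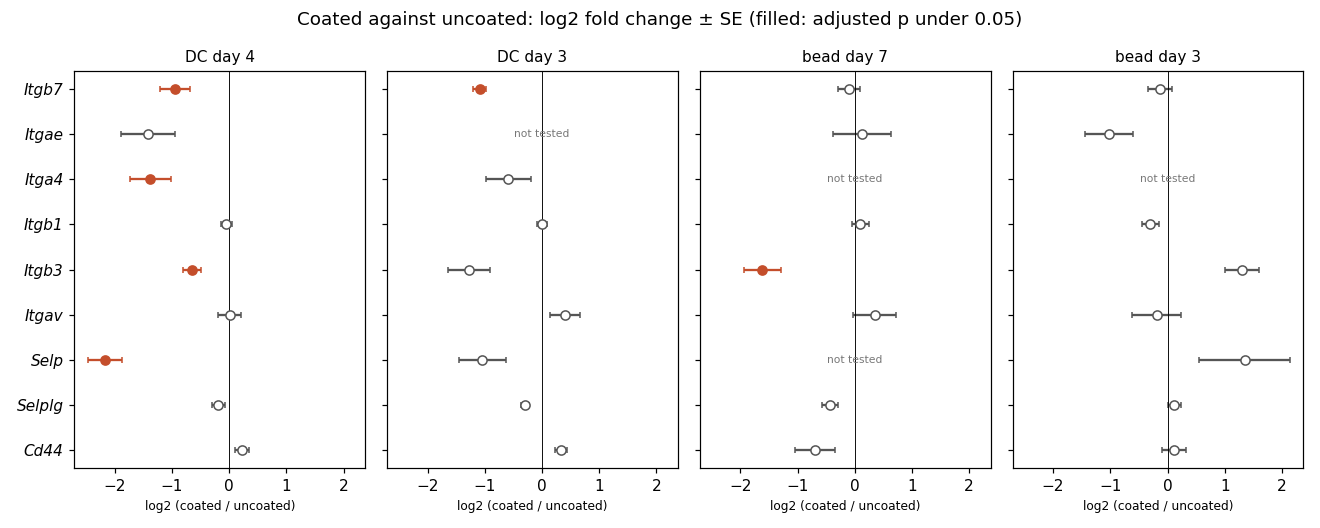
Log2 fold change of coated over uncoated cells (horizontal axis, the same scale in all panels) for the 9 genes in the 4 coating comparisons, with bars for 1 SE and filled symbols for an adjusted p under 0.05. Filled symbols lie left of 0 for Itgb7, Itga4, Itgb3 and Selp at DC day 4, for Itgb7 at DC day 3 and for Itgb3 at bead day 7, and no symbol is filled at bead day 3.

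Coating effects were then compared with each other as contrasts over 4 groups. Between DC day 4 and DC day 3, with day 3 limited to the libraries with 120, as at day 4, Selp alone of the 9 genes differed, and 3.33% of 9794 genes did. Its coating effect was more negative at day 4 (difference of log2 fold changes -2.03 ± 0.42, SE, adjusted p = 0.0196), with a log2 difference of -2.18 at day 4 and -0.14 at day 3. It was called in 23 of 23 alternatives. The M numbers are 6 to 10 at day 4 and 1 to 5 at day 3, so the day and the set of samples cannot be told apart. Between DC and bead at day 3, Itgb3 alone was called (-2.59 ± 0.52, SE, adjusted p = 0.0253), with 1.06% of 10075 genes, and Itgb7 had -0.98 ± 0.24 (SE, adjusted p = 0.0526; called without coated bead M3 or M4 or uncoated DC M3, at adjusted p of 0.0339 to 0.0452). The Itgb3 effect was -1.28 after DCs, in sums that mix 30 and 120 unequally between plates, and 1.302 after beads. Within the 120 libraries the Itgb3 effect after DCs was -0.43 ± 0.35 (SE, adjusted p = 0.750). The Itgb3 difference between DC and bead effects was called in 17 of 22 alternatives, with adjusted p of 0.000179 to 0.0854. The calls were lost without coated DC M2, uncoated DC M1 or M5, or uncoated bead M2 or M4.

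A comparison of the coating effects at bead day 7 and bead day 3 was added after the values had been seen. Itgb3 had a more negative effect at day 7 (-2.93 ± 0.51, SE, adjusted p = 0.0114), where 3.97% of 9481 genes were called, and it was called in 22 of 22 alternatives. Leaving out uncoated day 7 M3 and M4 together was not among these alternatives. Without both, the day 7 effect by itself was -1.39 and not called by edgeR's quasi-likelihood test (adjusted p = 0.213). The day 3 effect of 1.302 was not called either (adjusted p = 0.179). The part of the macrophage and endothelial transcripts described above was not tested. Selplg, the next in this comparison, had -0.57 ± 0.17 (SE, adjusted p = 0.0651; 0.0316 without uncoated day 7 M1). For Itgb7 the log2 difference of the effects was 0.03 with an approximate 95% interval of -0.57 to 0.62.

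The 30 or 120 of the titles was itself a large source of difference for Selp and Itgb3. The 16 DC day 3 libraries were fitted singly, with coating and M number as separate terms. Of the 9 genes 3 were higher at 120 and 0 lower, beside 11.3% of 9631 genes called, 5.88% as higher and 5.44% as lower. Selp had 76.6, 44.4, 55.3 and 75.5 CPM in coated libraries with 120, against 8.69, 0.63, 4.52, 6.12 and 9.35 CPM in coated libraries with 30. Uncoated libraries had 68.4, 39.1, 80.7 and 87.0 CPM with 120, against 8.87, 8.79 and 14.5 CPM with 30. No library with 30 came near any with 120, on either plate.

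The Selp difference was 3.14 ± 0.17 on the log2 scale (SE, adjusted p = 1.85e-10), an 8.80-fold higher level at 120, and the library with 120 was higher in 7 of 7 pairs with an M number and coating in common. Itgb3 had 15.9, 6.76, 9.61 and 14.5 CPM in coated libraries with 120, against 1.67, 1.26, 0.90, 0.87 and 3.12 CPM in coated libraries with 30. Uncoated libraries had 21.6, 8.80, 10.3 and 20.7 CPM with 120, against 6.90, 3.38 and 4.51 CPM with 30. The sets did not touch on either plate, with 1 to 14 counts in libraries with 30, and the log2 difference was 2.26 ± 0.24 (SE, adjusted p = 2.62e-06; higher in 7 of 7 pairs). Selplg rose less, by 0.37 ± 0.07 (SE, adjusted p = 0.00177), and was higher at 120 in 6 of 7 pairs, all but coated M2. These 3 genes were called in 20 of 20 alternatives.

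Itgb7 and its alpha partners were not called between the title numbers. Itgb7 was higher at 120 in 4 of 7 pairs, with a log2 difference of 0.33 ± 0.22 (SE, adjusted p = 0.392), and Itga4 had 0.92 ± 0.40 (SE, adjusted p = 0.153) on 1 to 21 counts per library. For Cd44 the approximate 95% interval was -0.27 to 0.30 and for Itgb1 it was -0.35 to 0.05. Listed genes of DCs and MHC class II were also higher at 120 in the median, with a sum of 735 CPM at 120 and 446 CPM at 30 in coated libraries, and 447 and 320.1 CPM in uncoated ones. Coated libraries did not overlap, with 592 to 1477 CPM at 120 and 345 to 546 CPM at 30, while uncoated ones did. Macrophage sums in coated libraries (7.35 to 21.6 and 2.67 to 5.34 CPM) and CD8 T cell sums in uncoated ones (4611 to 4790 and 3656 to 4475 CPM) were also higher at 120 without overlap. On the other plate each of these overlapped. The 4 platelet genes in the table summed to 0.60 to 4.90 CPM at 120 and 0.33 to 2.71 CPM at 30 in coated libraries, with Gp9 and Clec1b at 0 counts in all of them. Uncoated libraries had 0.31 to 2.93 CPM at 120 and 0 to 0.99 CPM at 30. The part of other cells in the Selp and Itgb3 values was not tested.

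**Figure D4:**
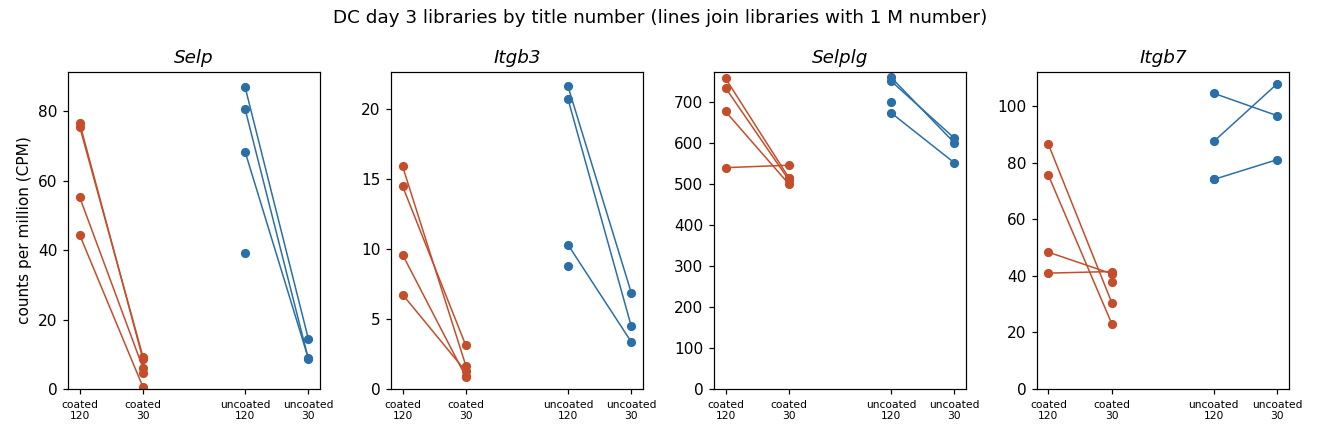
CPM (vertical axis, linear, from 0) of 4 genes in the 16 DC day 3 libraries by coating and title number, with lines joining libraries of the same M number and coating and unjoined points for libraries without a partner. Selp and Itgb3 drop in all 7 joined pairs from 120 to 30, Selplg drops in 6, and Itgb7 drops in 4.

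Activation was described by setting uncoated cells against day 0. From 54.9% to 73.9% of all genes tested were called in these 4 comparisons, which share the day 0 samples, so a call by itself says little about these genes. Itgb1 rose in each, by log2 1.23 ± 0.15 at bead day 3, 2.18 ± 0.14 at bead day 7, 1.82 ± 0.13 at DC day 3 and 1.64 ± 0.12 at DC day 4 (SE, adjusted p of 2.42e-06, 3.59e-10, 4.65e-10 and 1.38e-09). The range at day 0 was 47.8 to 81.7 CPM, under the lowest activated sample. Itga4 fell in each, with log2 fold changes of -4.62 ± 0.45, -4.72 ± 0.36, -3.96 ± 0.30 and -1.54 ± 0.22 in that order (SE, adjusted p of 1.20e-07, 2.76e-09, 1.14e-09 and 9.07e-06). At day 0 it had 31.1 to 73.8 CPM with a median of 54.4 CPM, while no uncoated activated sample passed 27.5 CPM. In bead-activated cells the fold rests on 0 to 7 counts per uncoated sample.

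At bead day 3, 1 of 8 genes tested was higher and 4 were lower than at day 0, with 64.8% of 8891 genes called, 29.9% as higher and 35% as lower; Selp did not pass the filter. Besides Itgb1 and Itga4, Itgae fell, with a log2 fold change of -1.65 ± 0.18, Cd44 with -1.13 ± 0.25 and Itgb7 with -0.70 ± 0.14 (SE, adjusted p of 4.27e-07, 0.000786 and 0.000426). Itgb3 was at -0.63 (adjusted p = 0.0939) and was called without day 0 M1 (-0.73, adjusted p = 0.0410). Cd44 was lower 3 days after bead activation, with 33.6, 22.8 and 42.6 CPM, against 49.1 to 103 CPM at day 0 and no overlap, beside 52.9% of genes without overlap. At bead day 7, 3 of 9 genes were higher and 3 lower, with 60.9% of 9281 genes called, 30.1% as higher and 30.8% as lower. Itgb3 rose by log2 2.95 ± 0.26 and Selplg by 0.70 ± 0.11 (SE, adjusted p of 3.39e-08 and 2.03e-05), both without overlap, as were 34.2% of genes. Itgae fell (-1.73 ± 0.25), as did Itgb7 (-0.57 ± 0.14, SE, adjusted p of 9.21e-06 and 0.00201), and Cd44 was near its day 0 level (-0.10 ± 0.25, SE, adjusted p = 0.750).

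At DC day 3, 3 of 9 genes were higher and 5 lower than at day 0, with 73.9% of 9259 genes called, 36.3% as higher and 37.5% as lower. Selp rose by log2 3.63 ± 0.35 and Cd44 by 0.87 ± 0.17 (SE, adjusted p of 3.75e-08 and 0.000134). Selp had 39.7, 39.1, 60.4 and 67.1 CPM, against 1.13 to 9.56 CPM at day 0 with a median of 4.39 CPM. These samples, summed over 30 and 120, were far apart from day 0, as samples of 55.5% of genes were. Taken singly, the uncoated libraries with 120 had 39.1 to 87.0 CPM. Those with 30 had 8.79 to 14.5 CPM, which overlapped the day 0 range. Besides Itga4, the genes that fell were Itgae (-5.82 ± 0.21), Itgb7 (-2.57 ± 0.13), Itgb3 (-1.10 ± 0.28) and Selplg (-0.72 ± 0.10, SE). The Itgb3 value also rests on sums over 30 and 120, and these overlapped day 0. Single uncoated libraries with 120 had 8.80 to 21.6 CPM of Itgb3, which overlapped its day 0 range. Those with 30 had 3.38 to 6.90 CPM, below that range. At DC day 4, 5 of 9 were higher and 1 lower, with 54.9% of 9365 genes called, 26% as higher and 28.9% as lower. Selp rose by 3.28 ± 0.33 and Itgb3 by 0.92 ± 0.20 (SE, adjusted p of 1.15e-07 and 0.000645). Itgae was above day 0 by 0.46 ± 0.10 (SE, adjusted p = 0.000513), and missed the threshold in a fit of all groups (adjusted p = 0.177). Selplg passed narrowly, by 0.23 ± 0.09 (SE, adjusted p = 0.0458), and was called in 9 of 19 alternatives. That call was lost without uncoated M7, M9 or M10 or day 0 M1, M2, M6, M7, M8 or M10 (adjusted p of 0.0534 to 0.0906). Itgav was at 0.51 (adjusted p = 0.169) and was called without day 0 M4 (0.73, adjusted p = 0.0290). Itgb7 was not called (0.17 ± 0.10, SE, adjusted p = 0.151).

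Day 0 samples carried the DC, erythroid and B cell transcripts described above, B cell markers summing to 3434 to 6853 CPM, and the 4 platelet genes to 9.62 to 23.7 CPM. Such cells can carry several of these 9 molecules, and their part in the day 0 levels was not tested.

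**Figure D5:**
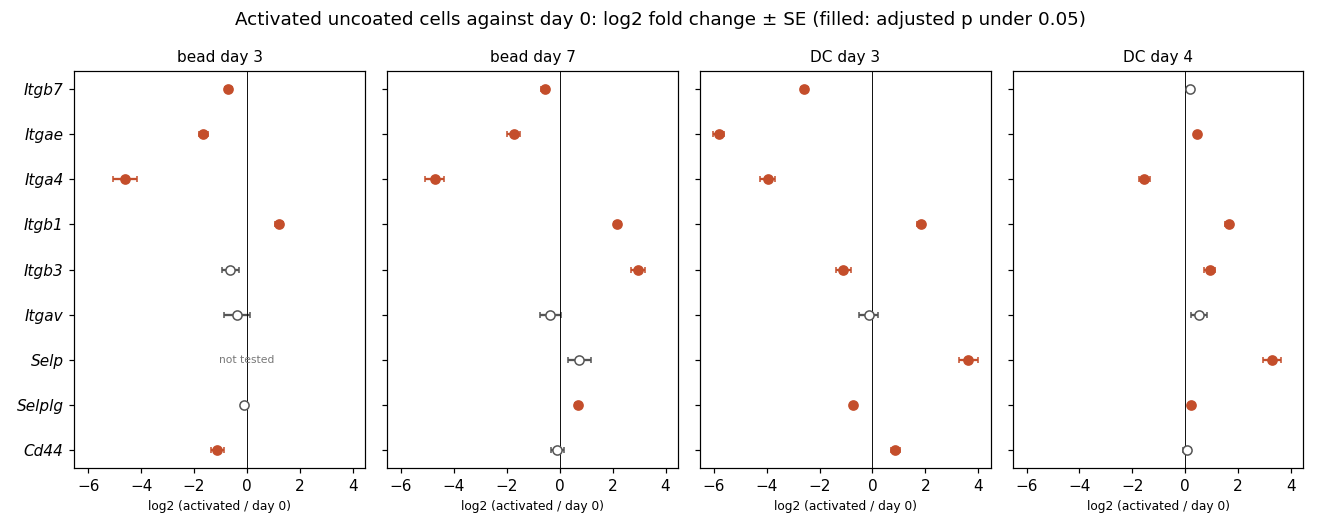
Log2 fold change of activated uncoated cells over day 0 cells (horizontal axis, the same scale in all panels) for the 9 genes, with bars for 1 SE and filled symbols for an adjusted p under 0.05. Itgb1 lies right of 0 and Itga4 left of 0 in all 4 panels, and Itgae and Itgb7 each lie further left at DC day 3 than in the other panels.

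Set against each other at day 3 without coating, DC-activated cells had more Selp, Cd44 and Itgb1 and less Itgae, Itgb7 and Selplg than bead-activated cells, 3 higher and 3 lower of 8 tested, beside 25.1% of 8907 genes called, 11.4% as higher and 13.8% as lower. Cd44 had 112, 154, 131 and 127 CPM after DCs, against 33.6, 22.8 and 42.6 CPM after beads. The groups did not overlap, as in 34.2% of genes, with a log2 fold change of 1.90 ± 0.18 (SE, adjusted p = 9.80e-07). Itgae was lower after DCs (-4.26 ± 0.33), as was Itgb7 (-1.93 ± 0.16, SE, adjusted p of 2.81e-07 and 4.49e-06), and Itgb1 was higher by 0.51 ± 0.11 (SE, adjusted p = 0.00280). Selp was higher by 3.89 ± 0.63 (SE, adjusted p = 0.00403), a value that depends on bead samples of which 2 of 3 are at 0 counts. It also rests on sums in which uncoated DC libraries had 39.1 to 87.0 CPM with 120 and 8.79 to 14.5 CPM with 30. NK cell genes (3 of 5 in the table) summed to 4.89 to 6.71 CPM after DCs and 287 to 426 CPM after beads. Klrb1c was at 0 after beads, so the sum there came from other listed genes, and whether it came from NK cells was not tested. DC and MHC class II genes summed to 315 to 609 CPM after DCs and 120 to 188 CPM after beads. Sums of B cell, endothelial and CD8 T cell genes also did not overlap, all 3 being lower after DCs. The part of other cells in these differences was not tested.

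Time in culture was compared within each kind of activation, again without coating. At bead day 7 against day 3, 3 of 8 genes tested were higher and 0 lower, beside 22.7% of 9024 genes called, 11.9% as higher and 10.8% as lower. Itgb3, Itgb1 and Selplg had no overlap between the days, as 30.2% of genes. Itgb3 rose by log2 3.56 ± 0.44, Itgb1 by 0.92 ± 0.16 and Selplg by 0.79 ± 0.16 (SE, adjusted p of 0.00135, 0.00343 and 0.00604). Macrophage and monocyte genes summed to 20.3 to 44.0 CPM at day 7 and 4.15 to 12.8 CPM at day 3, and endothelial genes to 24.4 to 55.3 CPM at day 7 and 15.6 to 23.9 CPM at day 3, both without overlap, and their part in these rises was not tested. Samples with an M number in common deviated together in this comparison, and with the M number as a block 14.8% of genes were called, the count for these genes staying at 3. DC day 4 was compared with day 3 libraries with 120, and 6 of 9 genes were higher and 2 lower. Of 9293 genes 61% were called, 30.6% as higher and 30.4% as lower. DC samples of day 4 and day 3 share no M number, so the day and the set of samples cannot be told apart. Itgae rose by 6.80 ± 0.28, Itgb7 by 2.83 ± 0.13 and Itga4 by 2.43 ± 0.34 (SE, adjusted p of 2.26e-10, 6.11e-11 and 1.296e-05). The 4 uncoated day 3 libraries held 2 to 11 counts of Itgae each. Itgb3 rose by 1.66 ± 0.21, Selplg by 0.91 ± 0.10 and Itgav by 0.66 ± 0.21. Selp fell (-0.75 ± 0.22), as did Cd44 (-0.68 ± 0.15, SE, adjusted p of 0.00832 and 0.000777). Itgav and Selp missed the threshold in a fit of all groups (adjusted p of 0.105 and 0.0763), and Itgav also without uncoated day 4 M6 (adjusted p = 0.0519). B cell genes summed to 1885 to 2394 CPM at DC day 4 and 581 to 643 CPM at day 3 with 120. Endothelial genes summed to 44.9 to 68.2 and 6.84 to 10.6 CPM. Macrophage and CD8 T cell sums were also higher at day 4 without overlap, while DC and MHC class II, platelet, erythroid and NK cell sums overlapped. The part of other cells in these differences was not tested.

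Genes that act with these adhesion molecules were counted from lists chosen with earlier results of these data known. In DC-activated cells at day 4 the selectin list, with ligands and the enzymes that glycosylate them, had 1 of 10 tested genes higher on the coating and 0 lower. Counts at DC day 4 stand beside 18.4% of all genes called, and several of the lists are near that share. That gene was Fut7, the fucosyltransferase that makes PSGL-1 able to bind selectins, at log2 1.34 ± 0.25 (SE, adjusted p = 0.00301). Among 23 integrin activators and tail-binding proteins 1 rose, the actin linker Vcl (1.23), and 4 fell, among them the actin crosslinker Actn1 (-1.22) and the adaptor Fyb (-0.94). Of 5 linkers of Cd44 and Selplg to actin 2 rose, Ezr (0.32) and Nf2 (0.37; adjusted p of 0.0291 and 0.0396). Of 9 genes of the TGF-beta pathway, which is known to induce Itgae, 0 rose and 2 fell, Smad3 (-1.21) and the inhibitory Smad7 (-0.92).

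Homing receptors and their regulators had 0 of 5 genes higher and 2 lower at DC day 4, the CCL21 receptor Ccr7 (-1.28) and the transcription factor Klf2 (-1.15), and 0 of 3 other integrin chains was called. The medians of these lists were 0.0079, -0.13, 0.19, 0.14 and -1.15 for selectins, activators, linkers, TGF-beta and homing, and 0.02 for the other integrins, beside -0.0034 for all genes tested. Of the ligands of the 9 molecules 1 of 11 was tested and it was not called. At DC day 3, 2 of 24 activators were lower, the Rap1 activator Rasgrp2 (-1.45) and Rasa3, which restrains Rap1 (-0.95), and no gene of the other lists was called. Bead day 7 had 1 call in these lists, the galactosyltransferase B4galt1 (-0.92, adjusted p = 0.0436) of 12 in the selectin list, and bead day 3 had 0.

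For the 4 coating comparisons the authors' deposited table gives log2 fold changes and adjusted p-values of its own. At DC day 4 the authors' deposited table has Selp at -2.18 (0.0391), Itga4 at -1.32 (0.00750), Itgb7 at -0.95 (0.000992) and Itgae at -1.39 (0.0300), and Itgb3 at -0.65 with an adjusted p of 0.357. At DC day 3 the authors' deposited table has Itgb7 at -0.97 (0.000873), with the other 8 genes at 0.429 or more. At bead day 7 the authors' deposited table has Itgb3 at -1.63 (0.00655), Selplg at -0.44 (0.0132) and Cd44 at -0.71 (0.0472), and at bead day 3 the lowest adjusted p of the 9 genes is 0.546, for Itgb3.

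Genes whose mean level over the 9 groups was most like that of each of the 9 were taken as a description, by Pearson's r of mean log2 CPM over 9 points that share libraries and scaling, among 7291 genes that reach a mean of 20 CPM in a group, predicted genes, pseudogenes, receptor segments and mitochondrially encoded genes being left out. Itgb7 was closest to Ly6e (r = 0.98), Baiap3 (0.98) and Sesn3 (0.98), and its r with Itgae was 0.96. Selp was closest to Lrmp (0.94), Polr2g (0.94) and Sla (0.93), and Itgb3 to Cdk5rap3 (0.99), Padi2 (0.98) and Tbc1d9b (0.98). The first for the others was Aspscr1 for Itgae (0.98), Clk1 for Itga4 (0.99), Ei24 for Itgb1 (0.94), Arhgef12 for Itgav (0.93), Mettl27 for Selplg (0.99) and Csnk1g1 for Cd44 (0.97).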

How the data were processed

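Bulk MARS-seq libraries, which count 3′ ends, were analysed from the table the authors deposited: whole-number counts of 14626 genes in 52 libraries, not normalized. Each gene reaches 6 counts in at least 1 library. The deposited table also holds the authors' log2 fold changes of coated over uncoated cells and the authors' adjusted p-values, and 104 further per-sample columns that were not used. The submitters' processing notes name bcl2fastq, cutadapt, STAR 2.4.2a, HTSeq, DESeq2 and mm10; whether copies of a molecule were collapsed is not given in the sources used here.

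Low genes were removed by filterByExpr (count minimum 10, total minimum 15), and the rest were scaled by TMM and tested in edgeR (version 4.0.16, R 4.3.3) by its quasi-likelihood F-test with robust dispersions. P-values are two-sided and were adjusted by Benjamini-Hochberg across the genes tested. A gene was called at an adjusted p under 0.05. Only the groups compared entered a fit, and DC libraries of day 3 with an M number and coating in common were summed. Printed CPM use TMM factors over all 45 samples, or over 52 libraries for single DC libraries of day 3. Each SE is the size of the log2 fold change over the square root of F. Depth limits genes with few counts, Itga4 and Itgae above all, and SDs include counting error.

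The 9 genes were named whatever their p; each list gave at most 3 names, its called genes of lowest p. Members and lists were chosen with earlier results of these data known. Alternatives were DESeq2 size factors, all groups in 1 fit, the Wald test of DESeq2 (version 1.42.0), no filter, the M number as a block (or none), single libraries and leaving out each sample. M numbers were taken to pair samples where deviations from group means correlated over 0.1 in every pair. This held for coating at DC day 4 (0.18 to 0.44, 5 pairs) and for bead day 7 against day 3 (0.19 to 0.33, 3 pairs). The main fits and the fits without 1 sample had no block in these comparisons either, and the block was run as an alternative. The fits were tested on simulated counts. No pair of libraries was identical.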

Additional observations from a re-analysis of the deposited data

Results flagged for a closer look

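The Selp coating effect differed between DC day 4 and DC day 3 in libraries with 120, by -2.03 on the log2 scale, as tested by the contrast of the 4 groups. The Itgb3 coating effect differed between DC and bead activation at day 3, by -2.59, and between bead day 7 and bead day 3, by -2.93, each by the same kind of contrast. Among samples within a group, Itgb1 in coated M2 of DC day 3 stood apart, at 285 CPM against 238 to 248 CPM in the other 4. Of 72 groups of 4 to 10 samples examined for the 9 genes, 1 held such a sample, and about 5% would by chance.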

How the results depend on the processing

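The number of the 9 genes called changed as follows. For coating at DC day 4 (4 called) no filter gave 3 and the Wald test of DESeq2 5. With all groups in 1 fit, DC day 4 against day 0 gave 5 (6 called), DC day 4 against day 3 gave 6 (8 called) and bead day 7 against day 3 gave 4 (3 called), as did the Wald test for the bead days. For coating at DC day 3 (1 called) 2 were called by the Wald test of DESeq2, 2 with the M number as a replicate block and 0 in single libraries. For bead day 3 (0 called) the Wald test called 1 and the block 2. For bead day 7 (1 called) no filter left 0, the Wald test gave 2, all groups in 1 fit 3, and leaving out uncoated M3 and M4 gave 0, an alternative chosen after seeing the data. For the DC minus bead difference (1 called) no filter gave 2, the Wald test 3 and the block 2, and for the bead day 7 minus day 3 difference (1 called) the Wald test and all groups in 1 fit gave 2 each. The causes were not tested. Leaving out each sample in turn gave 2 to 5 calls for coating at DC day 4 and 0 to 2 for coating at bead day 7. The DC minus bead difference had 0 to 2, the bead day 7 minus day 3 difference 1 to 2 and bead day 7 against day 3 had 3 to 4. Of 1766 values from leaving out a sample, 1662 kept direction and side of the threshold, 29 lost a call, 13 gained one and 62 uncalled values changed sign or moved. Of 756 values under other alternatives the numbers were 711, 9, 19 and 17, and no called value changed sign. Without TMM factors 77 of 81 mean levels stayed within 1 SD. With the block, Itgb3 was called at DC day 3 (-1.32, adjusted p = 0.0370), Itgb3 and Itgae at bead day 3 (1.197 and -1.05, adjusted p of 0.0251 and 0.0485), Itgb7 in the DC minus bead difference (-1.04, adjusted p = 0.0206) and Itgav at DC day 4 against day 0 (0.91, adjusted p = 0.0338), where Selplg lost its call (adjusted p = 0.0615). It changed no other call of these genes. For coating at DC day 3 and bead day 3 and for DC day 4 against day 0, samples with an M number in common correlated under 0.1 in at least 1 pair, so that the numbers were not taken as pairs. Over all genes, the number called moved more than that of these 9. Coating at DC day 4 called 1683 genes, with 2537 under the block and 833 to 1993 without 1 sample. DC day 3 called 40, with 109 by the Wald test, 7 with all groups, 121 under the block, 12 in single libraries and 1 to 97 without 1 sample. Within 120, 8 became 13 with no filter, 50 by the Wald test, 14 with all groups and 0 to 14 without 1 sample, and within 30, 20 became 57 by the Wald test, 8 with all groups, 198 under the block and 3 to 37. Bead day 3 called 9, with 17, 52, 2 and 140 under no filter, the Wald test, all groups and the block, 3 without M2, and 0 to 33 without 1 sample. Bead day 7 called 155, with 579, 918 and 267 under the Wald test, all groups and the block, 37 without uncoated M3 and M4, and 22 to 786 without 1 sample. Bead day 7 against day 3 called 2051, with 1339 under the block and 891 to 2372 without 1 sample. Of the differences between effects, DC day 4 minus day 3 called 326 (507 Wald, 151 all groups, 71 to 475 without 1 sample), DC minus bead 107 (346 Wald, 51 all groups, 498 block, 13 to 390), 120 minus 30 43 (140 Wald, 0 with no block, 9 to 111) and bead day 7 minus day 3 376 (652 Wald, 609 all groups, 83 block, 36 to 877). No paired analysis was possible for DC day 4 against day 3 because uncoated samples of those days share no M number. Low counts limit Itga4, Itgae at DC day 3 and Selp after beads.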
